A study of Mus musculus with 3 samples.

Results

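The replication histone genes encode the core and linker histones that package newly made DNA. They were taken as all genes whose annotated symbol begins with Hist1h, Hist2h, Hist3h or Hist4h and that have a protein-coding transcript. There were 67 such genes among 55536 annotated genes, of which 22028 were protein-coding. By histone family they were 6 genes of the linker histone H1, 18 of H2A, 18 of H2B, 12 of H3 and 13 of H4. By gene cluster, 54 were in cluster 1 on chromosome 13, 10 in cluster 2 on chromosome 3, 2 in cluster 3 on chromosome 11 and 1, Hist4h4, on chromosome 6.

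Total RNA of the chromatin fraction was sequenced after removal of ribosomal RNA, from primary bone marrow-derived macrophages of C57BL/6J mice. There was 1 group. Its cells were kept for 12 h in 100 ng/ml Lipid A, the part of bacterial endotoxin sensed by the receptor TLR4, washed and rested for 12 h, and given 100 ng/ml Lipid A again for 20 min. The group had 3 libraries, labelled biological replicates 1, 2 and 3, with 13953780, 24222661 and 16571228 expected counts (reads assigned to each gene by a model, which need not be whole). The labels name the same donor entry for all 3, so the spread between them may be partly technical. Starting RNA was 1 µg in replicate 1, 250 ng in replicate 2 and 500 ng in replicate 3, so its amount and the replicate cannot be told apart. Age and sex were not collected. Cells that had Lipid A once or not at all were not analysed here, so no value below is an effect of Lipid A. In the gene table all 8 macrophage markers examined, Adgre1 and Csf1r among them, reached 1 TPM in every library. Summed markers of B cells, T cells, neutrophils, erythroid cells and germ cells lay between 0.06 and 1.27 TPM there. In the second deposited quantification the T cell markers Cd3d and Cd8a had means of 14.01 ± 1.44 and 2.47 ± 0.38 TPM. Among the other markers of these cells the highest mean there was 1.55 TPM, for Sycp3. Why the quantifications differ for Cd3d was not tested.

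Replication histone genes are transcribed mainly in S phase, when their proteins are needed behind the replication fork, and macrophages that have left the cell cycle need few of them. Their mRNAs are the main animal mRNAs without a poly(A) tail. They end instead just after a conserved stem-loop, which the protein SLBP binds and where the U7 small nuclear RNA directs cleavage. RNA sequenced after ribosomal depletion, with no selection for poly(A), can hold both these mature ends and transcripts that continue past them. In bulk RNA, fewer cells in S phase and less RNA per cell cannot be told apart.

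The stem-loop is the sequence that the members share beyond their coding regions. It was searched as GG, 3 free bases, TTT, 2 free bases, A, 3 free bases and CC, 16 bases on the transcript strand whose 6 outer pairs can form a stem around a loop of 4 bases, in the transcripts of GENCODE M21 (genome mm10). It was found in 44 of the 67 members and took 6 forms. The most abundant member with each form, or for the second form the only member of cluster 4, is shown with 5 flanking bases on each side and the stem-loop in capitals, because the position of this element divides the members' transcript models in the results below.
Hist3h2a, chr11:58955167-58955192, plus strand: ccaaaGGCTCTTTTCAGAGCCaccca
Hist4h4, chr6:136803993-136804018, minus strand: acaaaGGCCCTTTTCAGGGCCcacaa
Hist1h2bb, chr13:23747198-23747223, plus strand: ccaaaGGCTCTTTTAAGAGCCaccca
Hist1h4i, chr13:22040961-22040986, minus strand: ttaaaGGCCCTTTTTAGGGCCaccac
Hist1h4b, chr13:23757361-23757386, plus strand: caaaaGGTCCTTTTCAGGACCactca
Hist2h2ac, chr3:96220413-96220438, minus strand: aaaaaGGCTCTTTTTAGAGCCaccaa
The form of Hist3h2a was found in 26 members, that of Hist4h4 in 7, that of Hist1h2bb in 6, those of Hist1h4i and Hist1h4b in 2 each, and that of Hist2h2ac in 1. Within the last 150 bases of a protein-coding transcript the pattern was present in 22 members. Among 21834 other protein-coding genes it was there in 4, Clec2d, Dclre1c, Mbnl1 and Stox2, which is 0.0183%.

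Most members were detected at a low level. TPM (a transcript level scaled for length and depth) was at least 1 in each library for 33 of the 67, beside 45.2% of all protein-coding genes. That share was near the background. A total of 46 members reached a mean of 1 TPM. The number at 1 TPM or more was 36 in replicate 1, 49 in replicate 2 and 42 in replicate 3. The depth of the libraries had the same order, and its part in these numbers was not tested. A count of 0 allows up to 3 counts, which is 0.220, 0.124 and 0.182 CPM (counts scaled to the library total) in replicates 1, 2 and 3, and this limit covers counting error only. In replicate 1, 29 members were at or under this limit, in replicate 2 there were 8 and in replicate 3 there were 23. In every library 36 members lay above it and 8 lay at or under it. Apart from the 45.2% above, no share of all protein-coding genes was computed for the counts of members in this paragraph.

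Summed over the 67 members, the level was 249.2 TPM in replicate 1, 323 in replicate 2 and 295 in replicate 3, a mean of 289 ± 37.1 (SD, n = 3). The sums rest on 2360, 5433 and 3110 expected counts. A single gene of cluster 3, Hist3h2a, supplied 38.9, 28.0 and 38.5% of these counts. The 5 members with most counts, Hist3h2a, Hist1h1c, Hist2h2be, Hist2h2aa2 and Hist1h4i, supplied 59.1, 50.2 and 58.8%, and the first 20 supplied 89.4, 85.5 and 87.8%. Without Hist3h2a the summed level was 209, 292 and 250 TPM.

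**Figure D1:**
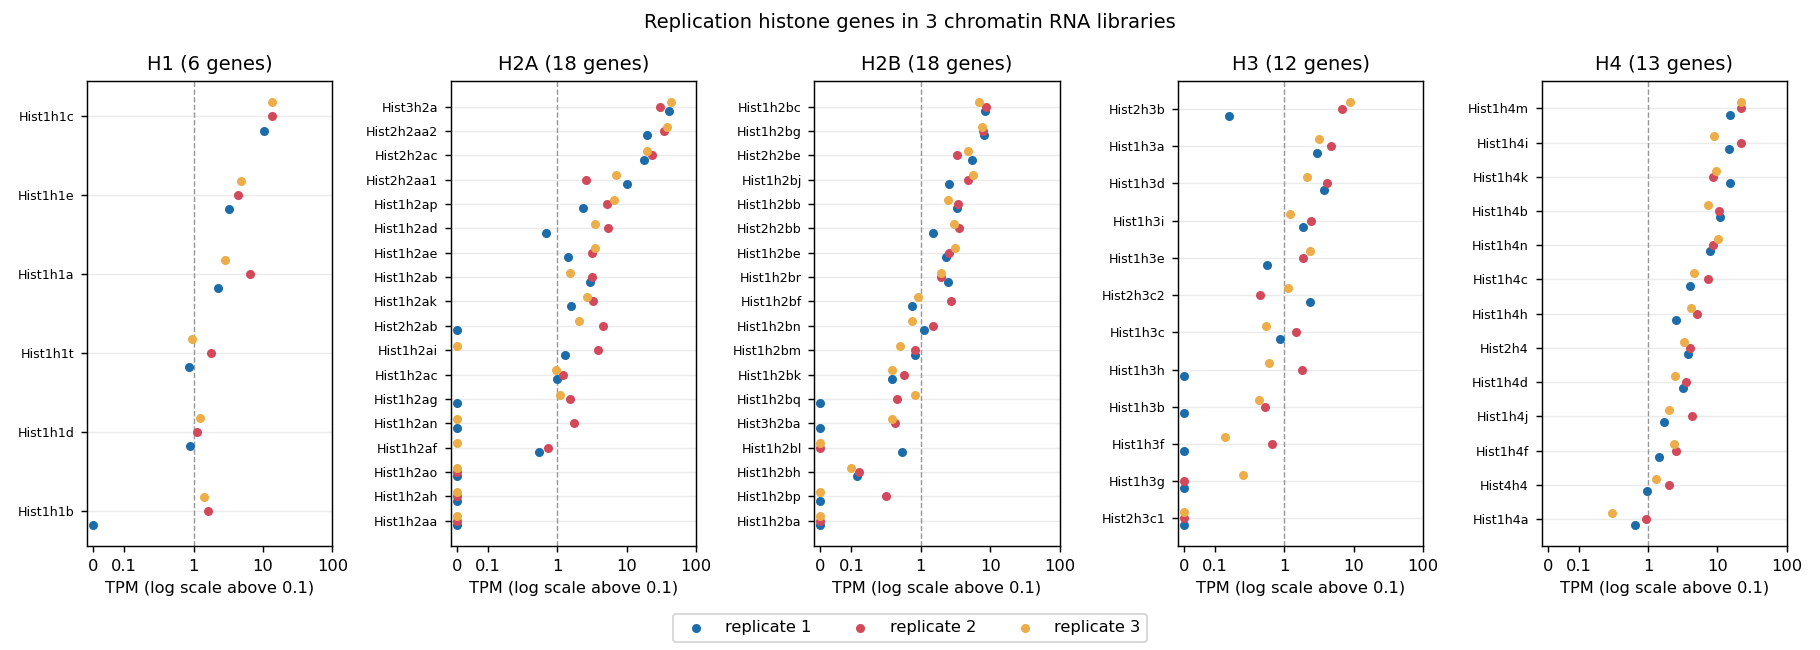
Level of each of the 67 members (rows, by family and mean level) in TPM in the 3 libraries (coloured points), on an axis that is logarithmic above 0.1 TPM and linear below it, with a dashed line at 1 TPM. Hist3h2a, Hist2h2aa2 and Hist2h2ac lead H2A, all but 2 of the 13 H4 genes reached 1 TPM in every library, and 5 members were listed at 0 in all 3.

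The core histones H2A and H4 supplied most of the members' level. The 18 H2A genes, whose products pair with H2B at the outside of the nucleosome, summed to 99.5, 124 and 132 TPM in replicates 1, 2 and 3, a mean of 119 ± 16.9. The 13 H4 genes, whose products pair with H3 at its centre, summed to 82.0, 102 and 78.2 TPM, a mean of 87.3 ± 12.6. H2B summed to 40.1 ± 2.74 TPM, H1 to 23.8 ± 5.73 TPM and H3 to 19.3 ± 6.27 TPM. The order of H2A, H4 and H2B was the same in each of the 3 libraries. The ranges of H2A and H4 overlapped, and so did those of H1 and H3, while both H2A and H4 lay above the range of H2B. By counts, which are not scaled for length, the order was different: H2A held 47.0 ± 5.03% of the members' counts, H2B 16.6 ± 1.34%, H1 16.5 ± 2.45%, H4 15.7 ± 3.62% and H3 4.26 ± 0.74%.

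Most members are short. The median transcript model was 539 bases, and the median effective length used for TPM was 318, 289 and 293 bases in replicates 1, 2 and 3. The median ratio of TPM to CPM was 4.18 for H2A, 3.66 for H2B, 3.40 for H4, 2.73 for H3 and 1.17 for H1. Hist1h4k, a model of 312 bases, reached 15.0, 8.74 and 9.66 TPM from 18.6, 19.9 and 12.0 counts.

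The families differed in how many members reached 1 TPM throughout, from 11 of 13 for H4 to 3 of 12 for H3, with 8 of 18 for H2A, 8 of 18 for H2B and 3 of 6 for H1. Just inside the threshold by their lowest library were Hist1h3i at 1.21 and Hist1h2ae at 1.41 TPM. Just outside it were Hist4h4 at 0.96, Hist1h2ac at 0.95, Hist1h1d at 0.89 and Hist1h1t at 0.86 TPM. Hist1h1d, a linker histone gene with the longest model of all members, 7425 bases, had 75.2, 214 and 127 counts and 0.89, 1.14 and 1.24 TPM.

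Within H2A, Hist3h2a had 918, 1522 and 1198 counts and 40.4, 30.7 and 44.3 TPM, a mean of 38.46 ± 7.0. It was the highest member in replicates 1 and 3 and was exceeded in replicate 2 by Hist2h2aa2. Its model, on chromosome 11 (58954685 to 58956830, plus strand, mm10), shares 33.0% of its bases with exons of Trim17 on the same strand, a gene at 4.41, 4.18 and 5.42 TPM. How many of its counts come from the shared stretch was not tested. Hist2h2aa2 had 19.5, 34.1 and 38.8 TPM, and its whole transcript is contained in that of its copy Hist2h2aa1, which had 10.1, 2.63 and 6.94 TPM. Replicate 2 was highest in counts for Hist2h2aa2 and lowest for Hist2h2aa1, so the split between the copies moved in opposite directions. Summed over the pair, the level was 29.7, 36.7 and 45.7 TPM. Hist2h2ac had 17.6, 23.1 and 19.7 TPM, with no overlap with the lower H2A genes Hist1h2ap (4.73 ± 2.18 TPM) and Hist1h2ad (3.18 ± 2.34 TPM). The lowest H2A gene above 0 was Hist1h2af at 0.55, 0.74 and 0 TPM.

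In the gene table no H2B gene exceeded 10 TPM in any library. In the second quantification Hist1h2bg did so in all 3, at 13.2, 12.5 and 10.02 TPM, and Hist1h2bc in replicates 1 and 2. In the gene table Hist1h2bc had 8.28, 8.69 and 6.92 TPM and Hist1h2bg 8.03, 7.90 and 7.55 TPM, ranges that overlap. Hist2h2be, known for transcripts that can also be polyadenylated, had 5.41, 3.29 and 4.82 TPM from 153, 204 and 163 counts. The lowest H2B gene above 0 was Hist1h2bp, with counts in replicate 2 only, at 0.32 TPM. The cluster 3 gene Hist3h2ba, in the same cluster as Hist3h2a, had 0, 0.42 and 0.38 TPM from 0, 4 and 2 counts.

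All but 2 of the 13 H4 genes, Hist4h4 and Hist1h4a, reached 1 TPM in every library. Hist1h4m had 15.0, 21.6 and 21.8 TPM. Hist1h4i had 14.9, 22.2 and 8.80 TPM and Hist1h4k the values given above, and the ranges of the 3 genes overlap. The single member of cluster 4, Hist4h4, had 0.96, 2.04 and 1.29 TPM, and the lowest H4 gene was Hist1h4a at 0.62 ± 0.32 TPM.

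H3 had the lowest sum of the core histones. Hist2h3b had 0.16, 6.70 and 8.90 TPM from 0.51, 42.7 and 30.9 counts, and 79.7% of its 50-base stretches also occur in the annotated transcript Gm20634. Hist1h3a had 2.94, 4.70 and 3.16 TPM and Hist1h3d 3.68, 4.05 and 2.12 TPM. The lowest H3 gene above 0 was Hist1h3g, with 1 count in replicate 3.

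Among the H1 genes, whose products bind the linker DNA between nucleosomes, Hist1h1c led in every library with 10.4, 13.7 and 13.3 TPM. Hist1h1e had 3.21, 4.34 and 4.75 TPM, below Hist1h1c in every library. Hist1h1a had 2.28, 6.50 and 2.84 TPM from 14, 84 and 20 counts, and it shares no 50-base stretch with another gene. The lowest, Hist1h1b, had 0, 1.62 and 1.41 TPM.

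Histone genes known from the male germ line were near the limit of detection, apart from Hist1h1t. The H2A gene Hist1h2aa and the H2B gene Hist1h2ba, which are neighbours on chromosome 13 and share 1 intergenic stretch, had no count in any library. Hist1h1t, the testis H1, had 7, 31 and 9 counts and 0.86, 1.78 and 0.95 TPM, and it shares no 50-base stretch with another gene. The germ cell markers Ddx4, Dazl and Sycp3 summed to 0.89, 0.58 and 1.16 TPM. The other members listed at 0 in all 3 libraries were Hist1h2ah, Hist1h2ao and Hist2h3c1. Each of these shares over 90% of its 50-base stretches with other genes (90.7, 93.5 and 100%), and which copy a shared read came from cannot be told from the tables.

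Sequence sharing was the rule among the members. Of the 67, 63 shared at least 1 stretch of 50 bases with another gene, the median member shared 49.5% of its stretches, and 32 members shared 50% or more. Hist1h2bq and Hist1h2br have a transcript in common, letter for letter. Exons of 24 members overlap exons of another gene, on the same strand for 7 and on the opposite strand for 21. For 17 of these the opposite entry is an annotated miRNA. Whether the counting used strand is not given in the sources used here, so reads of a member and of its antisense partner may not be told apart. The authors' deposited posterior SD of the count measures how firmly reads could be assigned. For Hist3h2a it was 1.86, 1.98 and 2.54 counts, small beside its 918, 1522 and 1198 counts. For Hist2h2aa2 it was 17.3, 14.3 and 12.4 counts beside 70.8, 252 and 156, and the deposited interval of its TPM in replicate 1 ran from 8.47 to 27.2. For Hist1h4m, which shares 89.8% of its stretches with Hist1h4n, it was 4.95, 5.39 and 4.74 counts beside 32.7, 92.1 and 50.7. Sums over near-identical genes were steadier than single genes in some cases. Hist1h2bq and Hist1h2br together had 56.7, 114 and 76.4 counts, while Hist1h2bq alone had 0, 13.6 and 21.3. Transcripts annotated for nonsense-mediated decay held 56.66, 100.23 and 55.15 counts of Hist1h2br and 0, 3.26 and 21.28 of Hist1h2bq. Hist1h4m and Hist1h4n together had 22.9, 30.3 and 32.0 TPM. Hist2h3b, Hist2h3c1 and Hist2h3c2 together had 2.49, 7.15 and 10.02 TPM, still lowest in replicate 1, as Hist2h3b alone was, while Hist2h3c2 alone was highest there (2.33, 0.45 and 1.12 TPM). Gm20634, which is no member, is not in this sum. On the same strand it covers 100% of the bases of Hist2h3c1 and 90.3% of those of Hist2h2aa1. Its own level was 6.95, 3.86 and 5.84 TPM, highest in replicate 1, and how reads were split with it was not tested.

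The members' counts and levels were divided differently over the kinds of annotated 3′ end. In 22 members the model ended 3 to 74 bases after the stem-loop, at a median of 32 bases. In another 22 it continued for 151 to 4884 bases past it. A further 11 had a model of the coding sequence only, and 12 had some sequence outside the coding region but no match to the stem-loop. Models that continued past the stem-loop, Hist3h2a, Hist1h1c and Hist1h4i among them, held 71.4, 68.7 and 70.8% of the members' counts in replicates 1, 2 and 3. Models that ended at it, such as Hist2h2aa2, Hist2h2ac and Hist1h4m, held 13.6, 16.6 and 15.4%. Of the 1684, 3731 and 2203 counts of the longer models, Hist3h2a alone had 918, 1522 and 1198, so much of this contrast rests on 1 gene. In TPM the classes were closer, at 41.6, 36.4 and 36.8% for the longer models and 41.3, 44.3 and 46.8% for those that ended at the stem-loop. The median effective length in replicate 1 was 1033 bases for the longer models and 264 bases for the shorter. The classes rest on protein-coding transcripts, while counts and TPM are of whole genes. Hist1h2be, put with the longer models, had 54.55, 135.45 and 86.69 counts. Of these, 35.42, 70.77 and 64.48 were assigned to a transcript that is not protein-coding and holds no stem-loop match. The tables give 1 value per transcript, so where along a model the reads lie is not known.

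**Figure D2:**
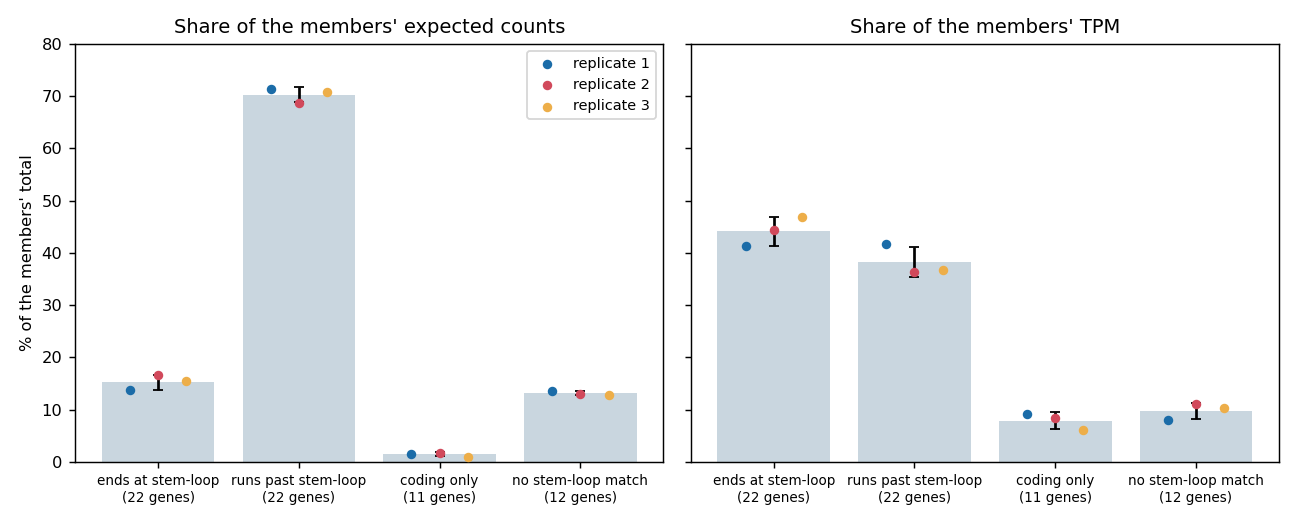
Share of the members' expected counts (left) and TPM (right), in percent of the members' total, by where the annotated transcript model ends. Bars are means, error bars SD over 3 libraries and points single libraries. Models that run past the stem-loop hold 70.3 ± 1.42% of counts and 38.3 ± 2.94% of TPM. Hist3h2a, 1 gene of this class, holds 38.9, 28.0 and 38.5% of all members' counts in replicates 1, 2 and 3.

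Clusters differed in the same way between scales. Cluster 1 had 147, 207 and 160 TPM and 42.1, 53.1 and 42.2% of the members' counts. Cluster 2 had 60.5, 82.4 and 88.7 TPM and 17.7, 16.2 and 17.7% of counts. Cluster 3, nearly all of it Hist3h2a, had 40.4, 31.1 and 44.7 TPM and 38.9, 28.1 and 38.6% of counts. Per gene, the median level was 4.11 TPM in the 10 genes of cluster 2 and 1.78 TPM in the 54 of cluster 1, beside 2.13 TPM over all 67. Cluster 1 lies in 2 blocks on chromosome 13. The block from 21715763 to 22043676 had 23 members at a median of 1.12 TPM, and that from 23531050 to 23934851 had 31 at a median of 2.56 TPM.

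H2A and H2B genes often lie head to head, and 12 such pairs had start sites within 500 bases of each other. Members of a pair share an intergenic stretch of 175 to 305 bases. In 6 of the 12 pairs the TPM ranges of the 2 genes did not overlap, with the H2B gene higher in 4 and the H2A gene in 2. Some of these orders rest on counts near the limit of 3. Hist1h2ah had no count, beside 1.18, 3.43 and 1.25 counts for Hist1h2bk. Hist1h2ak had 3.25, 13.2 and 6 counts, beside 2.18, 5.65 and 1.54 for Hist1h2bn. In the other 6 the ranges overlapped, among them Hist1h2ba and Hist1h2aa, both at 0. Hist2h2ac and Hist2h2be, on either side of chr3:96220881-96221118, had 20.1 ± 2.79 and 4.51 ± 1.09 TPM. In counts, which are not scaled for their models of 520 and 2620 bases, the order was the reverse, with 62.3, 166 and 77 for Hist2h2ac and 153, 204 and 163 for Hist2h2be. Hist1h2ac and Hist1h2bc had 1.04 ± 0.14 and 7.96 ± 0.93 TPM, and Hist1h2ae and Hist1h2bg 2.68 ± 1.12 and 7.83 ± 0.25 TPM. In these last 2 pairs the H2B gene was the higher in every library.

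Sequence just upstream of the start was matched in RefSeq (GRCm38.p6) for 61 of the 67 members, and 3 motifs were counted on both strands of the 250 bases before the start. These were CCAAT, bound by NF-Y, TATAAA, a form of the TATA box, and ATTTGCAT, the octamer bound by OCT1. The last 120 bases before the start are shown for 4 abundant members of different families or clusters, with matches to the 3 motifs, on either strand, in capitals.
Hist3h2a, chr11:58954565-58954684, plus strand: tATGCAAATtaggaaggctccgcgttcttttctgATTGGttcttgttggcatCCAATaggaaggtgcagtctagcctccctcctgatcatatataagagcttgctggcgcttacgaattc
Hist2h2ac, chr3:96220881-96221000, minus strand: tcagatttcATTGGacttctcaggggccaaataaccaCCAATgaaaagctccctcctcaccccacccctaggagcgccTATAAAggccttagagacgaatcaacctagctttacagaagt
Hist1h1c, chr13:23738687-23738806, plus strand: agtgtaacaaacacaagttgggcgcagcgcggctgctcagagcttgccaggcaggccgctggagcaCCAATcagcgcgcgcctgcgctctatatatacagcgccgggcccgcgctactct
Hist1h4i, chr13:22041363-22041482, minus strand: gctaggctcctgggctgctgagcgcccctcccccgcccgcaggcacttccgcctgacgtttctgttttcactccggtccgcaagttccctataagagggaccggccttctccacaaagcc
CCAAT was present in 50 of 61 members, 82.0%, beside 34.5% of 27025 promoters. By family it was in 6 of 6 H1, 17 of 17 H2A, 16 of 16 H2B, 8 of 10 H3 and 3 of 12 H4 genes. TATAAA was present in 29 members, 47.5%, beside 13.0% of all promoters. The octamer was present in 13 members, 21.3%, beside 1.61% of all promoters, and these were 7 H2A and 6 H2B genes. The windows of head-to-head pairs overlap and both strands were read, so paired genes are not independent counts. A match is a description of these letters and does not show binding.

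The 3 libraries did not hold the members in equal proportion. For 17 members with a mean of at least 50 counts, log2 CPM was computed with TMM scaling, and 15 were highest in replicate 2, beside 39.6% of 9540 protein-coding genes at that count. They included 3 of 3 H1, 2 of 3 H2A, 4 of 5 H2B, 1 of 1 H3 and 5 of 5 H4 genes. The exceptions were Hist3h2a, highest in replicate 3, and Hist2h2be, highest in replicate 1. With near-identical genes summed, 14 of 17 were highest in replicate 2. The sum of Hist2h2aa2 and its copy Hist2h2aa1 was nearly equal in replicates 2 and 3, at 3.551 and 3.558 log2 CPM. Hist1h4i had 88.6, 279 and 60.3 counts, or 2.69, 3.57 and 1.93 log2 CPM. Hist1h1c had 165, 470 and 249 counts, or 3.57, 4.32 and 3.95 log2 CPM. In both, replicate 2 stood above the other libraries after scaling for depth. The median member lay 0.53 log2 units higher in replicate 2 than in the mean of replicates 1 and 3, and the median protein-coding gene 0.03.

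The count depended on the scale, while the distance to other genes was similar on log2 CPM and log2(TPM + 1). On log2(TPM + 1) the median protein-coding gene was lower in replicate 2 than in the other libraries (difference -0.27), and 8 of the 17 members were highest there, beside 9.43% of protein-coding genes. Relative to the median protein-coding gene, the members were higher in replicate 2 by 0.50 with TMM, by 0.47 in the second quantification and by 0.45 on log2(TPM + 1). DESeq2 size factors and the library total also gave 0.50. Each of these scales a whole library by a single factor, which cancels in this difference, so that match was fixed in advance. Among 40 members with a mean of at least 10 counts, 31 were highest in replicate 2, beside 38.9% of protein-coding genes at that count. They include 16 of the 23 members with a mean of 10 to 50 counts, a range for which no share of protein-coding genes was computed. Replicate 2 was the deepest library and had the least starting RNA, and the part of either in this order was not tested.

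**Figure D3:**
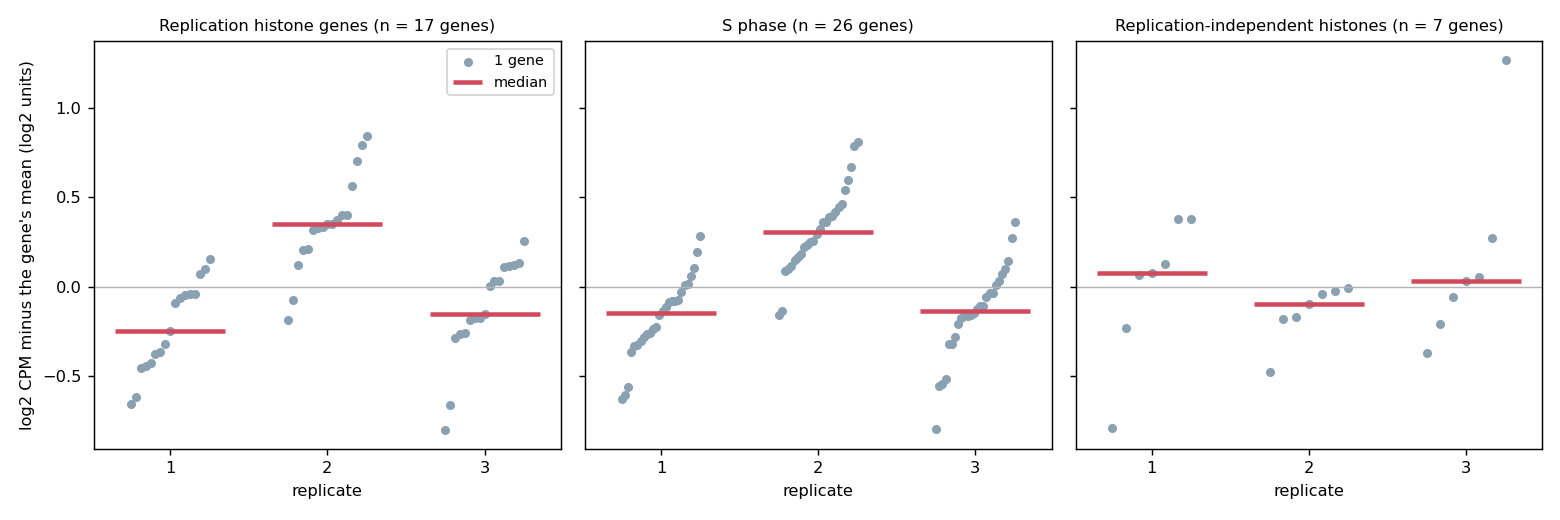
log2 CPM (TMM scaling) minus each gene's mean over the 3 libraries, in log2 units, for genes that averaged 50 counts or more: 17 members (left), 26 genes of S phase (middle) and 7 replication-independent histone genes (right). Each point is a gene, ordered by value within a library, and red lines are medians. Replicate 2 holds the highest value of 15 of the 17 members, of 23 of the 26 S phase genes (on this CPM scale) and of none (0) of the 7 replication-independent genes.

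In CPM, genes of DNA replication were also mostly highest in replicate 2. Of 26 S phase genes with at least 50 counts, 23 were, again beside 39.6% of protein-coding genes. On log2(TPM + 1) 9 of the 26 were highest there, beside 9.43%, and their summed TPM over the whole list, 210.94, 210.05 and 198.84, was not highest there. Relative to the median protein-coding gene, they were higher in replicate 2 than in the other libraries by 0.43 log2 units with TMM, 0.36 on log2(TPM + 1) and 0.30 in the second quantification. Mcm5, a subunit of the replicative helicase, differed 2.99-fold between its highest library, replicate 2, and its lowest. Pcna, the sliding clamp of the replication fork, had 25.0, 22.3 and 18.7 TPM and was highest in replicate 2 in CPM, not in TPM. The ribonucleotide reductase subunit Rrm2 had 0.74, 1.30 and 0.94 TPM. Of the S phase list, 25 of 34 reached 1 TPM in every library, led by Tk1 (36.6 ± 3.95 TPM), Rfc1 (33.6 ± 4.63) and Pcna (22.0 ± 3.17), with Fen1 lowest at 0.33 ± 0.22. The cyclins Ccna2 and Ccne1 had 1.96 ± 0.08 and 0.82 ± 0.32 TPM, and 3.20 ± 0.23 and 5.94 ± 1.28 TPM in the second quantification. The mitosis list, with 8 of 16 genes at 1 TPM in every library, had 3 of 6 tested genes highest in replicate 2 in CPM and 1 of 6 on log2(TPM + 1). Its leading genes were Mki67 at 7.49 ± 1.34, Top2a at 5.36 ± 0.60 and Cenpe at 4.04 ± 0.90 TPM, and its lowest Ccnb2 at 0.34 ± 0.09.

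In CPM the members' median spread between libraries was above that of protein-coding genes. The median SD of log2 CPM over the 3 libraries was 0.35 for the 17 members and 0.19 for 9540 protein-coding genes. At a mean of 50 to 300 counts it was 0.36 for 16 members and 0.23 for protein-coding genes. On log2(TPM + 1) the 2 medians were nearly equal, at 0.235 and 0.230. In 5 of the 17 members the highest library was over 2 times the lowest, beside 6.06% of protein-coding genes, and beside 8.94% of those with a mean of 50 to 300 counts. The widest was Hist1h4i at 3.12-fold, followed by Hist4h4 (2.65), Hist1h3d (2.34), Hist1h4c (2.21) and Hist2h2aa2 (2.08). Hist4h4 had 30, 139 and 48 counts, high in replicate 2 alone. The narrowest were Hist3h2a at 1.15-fold, Hist1h2br at 1.24 and Hist2h2be at 1.26. Nearly all counts of Hist1h2br were assigned to a transcript annotated for nonsense-mediated decay, not to its protein-coding transcripts. On log2(TPM + 1) 1 of the 17 passed, beside 7.61% of protein-coding genes. On TPM with nothing added 2 passed, Hist1h4i and Hist4h4, beside 12.1%, so on neither TPM scale was the members' share far above the background. Comparing 2 libraries at a time, 2 members passed without replicate 1, 0 without replicate 2 and 3 without replicate 3. The shares of protein-coding genes were 2.18, 2.30 and 4.21%. With near-identical genes summed 4 of 17 passed, and Hist2h2aa1 and Hist2h2aa2 together differed 1.43-fold.

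Replication-independent histone genes, most of which have polyadenylated mRNAs made throughout the cell cycle, were set beside the members by family. A level of 1 TPM or more throughout was reached by 9 of 17. H3f3b, which encodes the variant H3.3, had 327, 225 and 332 TPM. H3f3a, which encodes the same protein, had 37.5, 21.1 and 21.8 TPM. With Cenpa, the centromeric H3, they summed to 327 ± 67.8 TPM, which is 29.6, 10.1 and 17.5 times the sum of the 12 H3 members. In the second quantification H3f3a was higher, at a mean of 77.3 ± 27.9 TPM, and H3f3b lower, at 227 ± 42.0 TPM. For H2A the 6 replication-independent genes summed to 106 ± 15.4 TPM, which is 1.15, 0.71 and 0.87 times the H2A members, so the order of the sums changed between libraries. They were led by H2afy (macroH2A) at 79.9 ± 11.8 and H2afz (H2A.Z) at 14.1 ± 2.27 TPM, with H2afx at 0.76 ± 0.47. In the second quantification H2afy alone had 99.0 ± 17.3 TPM, beside 97.1 ± 14.6 TPM for the sum of the H2A members. H2afz was lower there, at 8.97 ± 1.72 TPM. For H1, H1f0, H1fx and H1foo summed to 7.20 ± 2.47 TPM, nearly all of it H1f0 at 7.0 ± 2.37, which is 0.56, 0.18 and 0.27 times the H1 members. None (0) of the 7 replication-independent genes with at least 50 counts was highest in replicate 2 in any scaling of the gene table, while 2 of 9 were in the second quantification.

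The genes that make and process histone mRNA were measured as a list of 31. Of these 27 reached 1 TPM in every library, led by the general 3′ end and cap factors Srrt (172 ± 25.4 TPM), Xrn2 (90.35 ± 17.99) and Fip1l1 (60.1 ± 10.8). Slbp, which binds the stem-loop, had 23.8, 25.8 and 19.9 TPM. Npat, the coactivator of histone gene transcription, had 5.01 ± 1.36 TPM, and Casp8ap2 (FLASH), which acts with it and in 3′ cleavage, 9.43 ± 0.93. Cdk2, the kinase that phosphorylates NPAT, had 13.2 ± 2.81 TPM. Eri1, an exonuclease that trims histone mRNA ends, had 12.5 ± 4.11 TPM. Lsm11, a protein of the U7 particle, had 0.52 ± 0.10 TPM in the gene table and 4.56 ± 1.17 TPM in the second quantification. Rnu7, the short annotated U7 RNA, was at 0 counts in every library. Its length lies below the fragment size range that the labels give, so these libraries do not show its level. Of the 27 genes of this list with at least 50 counts, 17 were highest in replicate 2 in CPM, beside 39.6% of protein-coding genes, and 4 on log2(TPM + 1), beside 9.43%. For histone chaperones, which carry histones to DNA, these were 17 of 20 in CPM and 3 of 20 on log2(TPM + 1). Of the chaperones, 20 of 21 reached 1 TPM in every library, led by Atrx (284 ± 15.0 TPM), Daxx (95.5 ± 50.9) and Cabin1 (42.5 ± 0.96), with Asf1b lowest at 0.81 ± 0.42.

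The deposited files held 2 quantifications of each library, and most members had similar levels in both. With 1 TPM added to each value, 3 of 49 members at a mean of 1 TPM or more in either were over 2 times higher in the second, beside 28% of protein-coding genes. None (0) was under 0.5 times the first on that scale, beside 0.184%, or 28.2% of protein-coding genes in either direction. On the TPM values themselves 6 of the 49 were over 2 times higher, beside 34.1%, and 2, Hist1h2ap and Hist2h2bb, were under 0.5 times the first, beside 0.283%. The median log2 ratio of the second to the first, again with 1 TPM added, was -0.08 for the members and 0.52 for protein-coding genes. Hist1h2ao was listed at 0 in the first quantification and had 0.90, 1.20 and 1.36 TPM in the second. Hist2h2ab had 0, 4.55 and 2.09 TPM in the first and 3.04, 9.54 and 5.11 in the second, higher in every library. Hist1h2bq had 0, 0.46 and 0.84 TPM in the first and 2.56, 1.44 and 1.95 in the second. The next were Hist1h2bf at a mean of 1.47 and 3.56 TPM and Hist4h4 at 1.43 and 3.41 TPM, over 2 times apart only without the added TPM. Without replicate 1, and with 1 TPM added, the number over 2 times was 1.

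**Figure D4:**
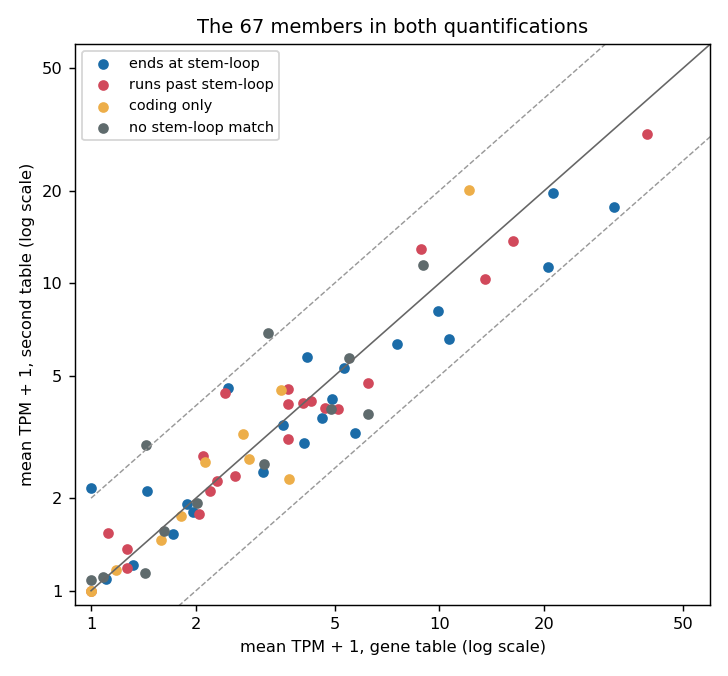
Mean TPM + 1 of the 67 members over 3 libraries in the gene table (x) and in the second transcript table (y), both on log axes, coloured by where the transcript model ends. The solid line marks equal values and the dashed lines a factor of 2. Hist1h2ao, Hist2h2ab and Hist1h2bq are the points above the upper dashed line and no point lies below the lower one.

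The quantifications were also summed by transcript model. Models that ended at the stem-loop summed to 128 TPM in the first and 95.2 in the second. Hist1h4m, of this class, had a mean of 19.5 TPM in the first and 10.3 in the second. Models of the coding sequence only summed to 22.6 and 30.9 TPM, nearly all of the difference in Hist1h4k, at 11.1 and 19.2. Without Hist1h4k the other 10 summed to 11.5 and 11.7 TPM.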

How the data were processed

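Each library has a table of genes and 2 of transcripts. Per the file headers, the table of genes and 1 of those of transcripts hold the authors' expected counts (estimates, not always whole), TPM and FPKM, and the other table, called the second here, estimated counts and TPM. The deposited FPKM, scaled for length and depth, were not used. Genome mm10 and annotation M21 come from the notes deposited with each library. For the aligner and the quantifying programs, nothing is given in the sources used here. Short genes get a high TPM per count because TPM divides by an effective length.

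Entries that were no genes, 2.46, 0.484 and 0.327% of counts, stayed out of CPM. A total of 86 genes were missing from the second table and entered it at 0. Expected counts were rounded and scaled with TMM factors of edgeR 4.0.16 (1.03, 0.984 and 0.985, prior count 2) in R 4.3.3. DESeq2 1.42.0 gave alternative size factors. Measures of spread used genes that averaged 50 counts or more. Stem-loops, stretches of 50 shared bases and promoter motifs were searched with Python 3.11.15 and pandas 2.3.3 (numpy 2.4.6), and plots were made in matplotlib 3.10.9. Scaling and the stem-loop search were tested on simulated data.

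With 1 group there was no comparison between groups and no p-value. Alternatives covered scaling, filters, pseudocounts, the second table and leaving out each replicate. The members, gene lists and settings were chosen with earlier results of these data known. Genes were named by rule: the 3 highest and the lowest above 0 of each family, all of clusters 3 and 4, the 5 widest and 3 narrowest in range, the 5 that differed most between quantifications, germ line members, those at 0, and of each other list the 3 highest, the lowest and fixed genes. Other members named were chosen after their values were seen.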

Additional observations from a re-analysis of the deposited data

How the results depend on the processing

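Of 129 recomputed values, 91 stayed within the spread between libraries or within 1.5 times the count, and 38 moved. For some the outcome was fixed in advance. Leaving out 1 replicate cannot move a summed TPM beyond that spread. Leaving out members with an identical transcript removed no H1, H2A, H3 or H4 gene. The 91 is therefore no measure of how stable the sums are. No paired analysis was possible because there was 1 group. With a threshold of 5 TPM in place of 1, 11 members passed in every library. In CPM, a different unit, the members summed to 196, H1 to 32.6, H2A to 91.1, H2B to 32.2, H3 to 8.46, H4 to 31.3, and clusters 1 to 4 to 90.7, 33.5, 67.8 and 3.63. In the second quantification H2A summed to 97.1, H2B to 49.8, and clusters 2, 3 and 4 to 59.7, 30.0 and 3.41 TPM. With protein-coding transcripts only, H2B summed to 35.8 TPM. Without Hist3h2a, an alternative added after seeing the data, all members summed to 250.4 and H2A to 80.1 TPM. The median SD of log2 CPM was 0.58 for members averaging 10 counts or more, beside 0.21 for protein-coding genes. The members over 2 times between libraries numbered 21 of 40 with at least 10 counts, beside 10.1% of protein-coding genes. They were 34 of 67 without a filter, beside 11.2%, and 0 of 2 with at least 200 counts, beside 4.23%. On log2(TPM + 1) they were 1 of 17, beside 7.61%. On TPM with no pseudocount (added after seeing the data) they were 2 of 17, beside 12.1%. With 1 replicate left out they were from 0 to 3 of 17, beside 2.18 to 4.21%. The shares of 10.1 and 11.2% and the SD of 0.21 were not matched to the members' counts. Of the 40 members, 23 averaged 10 to 50 counts. Without a filter the protein-coding genes include some with no count, which have no range. The part of low counts in these differences was not tested. Members highest in replicate 2, a count added after seeing the data, were 31 of 40 with at least 10 counts, beside 38.9%. On log2(TPM + 1) they were 8 of 17, beside 9.43%. Those whose quantifications differed over 2 times numbered 7 and 0 with pseudocounts of 0.1 and 5, 8 with none (added after seeing the data), 1 at 5 TPM, 1 in CPM, 12 at 1.5 times, 0 at 4 times, and from 1 to 4 with 1 replicate left out. The cause of these shifts was not tested. Depth limits the lower members: 50 of the 67 had a mean under 50 counts and entered no measure of spread.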

Other observations

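Genes of other functions lie inside the histone gene blocks of chromosome 13, and nearly all were silent or close to it in these libraries. Of 9 such protein-coding genes, Hfe, which regulates iron uptake, alone reached 1 TPM in every library, at 4.02, 5.46 and 6.19 TPM. The 4 transporter genes Slc17a1, Slc17a2, Slc17a3 and Slc17a4 had no count in any library. Zfp184, Pom121l2, Prss16 and Trim38 had at most 7 counts in a library. Beside them, 26 of the 54 members in these blocks reached 1 TPM in every library, a share near the 45.2% of all protein-coding genes.

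Cenpa, the centromeric H3 variant, had 80, 169 and 392 counts and 2.97, 3.01 and 12.1 TPM. Replicate 3 stood 4.17-fold above the lowest library in CPM, while the sum of the 12 H3 members was highest in replicate 2.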
